A study of Mus musculus with 6 samples.

Results

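Bone from the skull vault was compared with bone from a long bone of the forelimb, across the whole genome, on the calvaria and ulna arrays of a mouse pilot series. Of the 6 arrays, 4 carried this comparison, with 2 of calvaria and 2 of ulna. The 2 mandible arrays, whose bone included the teeth, served only to estimate the spread between arrays of a site. All 45037 probe sets other than the array's own controls were open to the test. Those tested were the 25233 whose signal lay above the median of the array on at least 2 of the 6 arrays, and they read 12326 of the 18193 genes with a named probe set. The mice were adult males labelled with a weight of 24-26, which the study's methods give in grams, of a strain that the methods write as Black CD57, and none carried a transgene or received a drug according to the labels. Calvarial bone had its sutures taken out, while the ulna had been freed of soft tissue and of its epiphyses, the growing ends. RNA came from whole bone ground in liquid nitrogen, so each array read osteoblasts, osteocytes and osteoclasts together with marrow, vessels and whatever else adhered. The methods say that the mice of the pilot were divided into 2 groups. The sources used here do not say whether these groups match the replicates, or how many mice stand behind each array. The p-values below thus cover only the spread from array to array within a site, which may be technical or lie between groups of mice.

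The bones of the vault form directly in a membrane of mesenchyme, in contact with the underlying meninges, and carry small loads in the adult. Limb bones such as the ulna form through a cartilage model, hold a long marrow cavity, serve as an attachment for muscles and are remodelled by load. Osteoblasts secrete the collagenous matrix and mineralize it, osteocytes are osteoblasts that the matrix has enclosed, and osteoclasts of the blood lineage resorb it.

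A gene was called when its probe set passed an adjusted p of 0.05 in limma and differed at least 2-fold between the sites. Of the 25233 probe sets tested, 1741 were higher in calvaria (6.9%) and 1250 were lower (4.95%). When each gene was read by its tested probe set with the highest mean, calvaria exceeded ulna for 1031 genes (8.36%) and fell below it for 560 (4.54%). Of the genes not called, 930 were higher and 1704 lower with an adjusted p under 0.05 but a change under 2-fold. The median log2 difference, calvaria minus ulna, was -0.05 over all genes, and these shares and this median are the background for each gene list below. Both calvaria arrays lay above both ulna arrays for 27.5% of probe sets and below them for 38%, and of the genes called, 0 had arrays that overlapped. Deposited values are signal intensities from the MAS5 algorithm, scaled on each array to a trimmed mean of 100. The median signal was 32.5 and 32.4 on the calvaria arrays and 31.0 and 30.6 on the ulna arrays. No detection calls were used here, so a signal below the array median may be background. The log2 difference is not exact where both arrays of a site lie there, as they did in ulna for 366 of the genes called higher and in calvaria for 142 of those called lower.

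The arrays matched their labels in sex and tissue. The Y-linked gene Eif2s3y had signals of 388 and 345 in calvaria and 501 and 482 in ulna, and Xist, which silences the second X chromosome of females, lay near the array median (24.3 and 23.6 in calvaria, 46.3 and 56.1 in ulna). Osteoblast markers were present at both sites. Summed over the 15 tested, their signal was 1380 and 1540 times the array median in calvaria and 275 and 284 times in ulna. Markers of tissues other than bone also differed. The 38 tested genes of the sarcomere, the contractile unit of striated muscle, summed to 453 and 466 array medians in calvaria and to 3130 and 3210 in ulna, although the labels say that soft tissue was removed. The 15 markers of the meninges summed to 110 and 94 in calvaria and to 16.9 and 16.1 in ulna, and the 14 of brain neurons and glia to 64.8 and 61.2 against 21.6 and 21.3. Adipocyte markers (14 genes) summed to 264 on both calvaria arrays and to 638 and 652 in ulna. In each of these lists the arrays of one site lay wholly apart from those of the other. In RNA from whole tissue, fewer cells of a type and less RNA per cell cannot be told apart, and the part that these tissues had in the differences below was not tested.

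**Figure D1:**
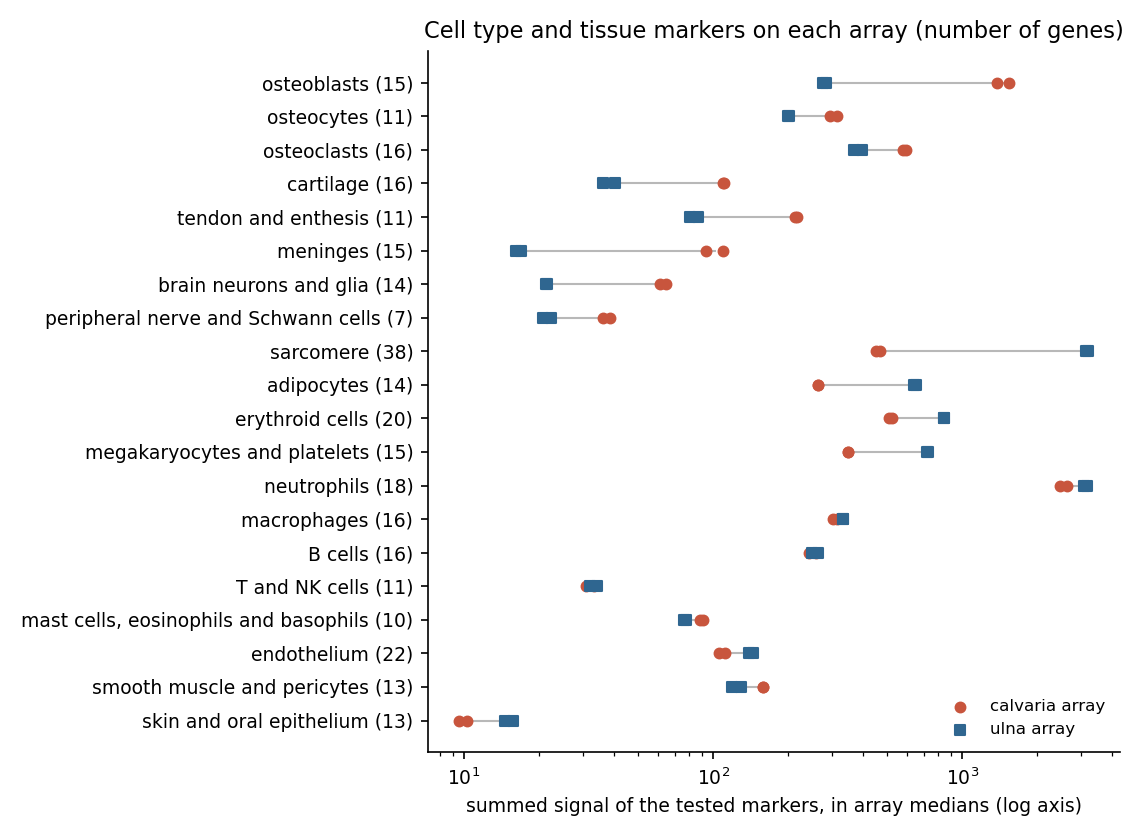
Summed signal of the tested markers of each cell type or tissue on the 2 calvaria arrays (circles) and the 2 ulna arrays (squares), in multiples of the array median on a logarithmic axis, with the number of genes in brackets. Osteoblast and meninges markers lie to the right in calvaria, sarcomere, adipocyte and megakaryocyte markers to the right in ulna, and B cell and T cell markers coincide.

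The difference between the sites exceeded that between arrays of one site over much of the range. Arrays of one site differed by a median of 0.195 (calvaria) and 0.196 (ulna) on the log2 scale without sign, and arrays of different sites by 0.412 to 0.431. More than 2-fold apart were 1154 probe sets between the calvaria arrays and 1480 between the ulna arrays, against 4302 to 4665 between a calvaria and an ulna array. Rises and falls differed in how they were spread over signal. Genes were ordered by mean signal and divided into 5 equal groups. The share higher in calvaria was 12.5% in the group of lowest signal and 6.66% in the highest. The share lower stayed between 4.41% and 4.86%. A gene of low mean signal could enter the test because it was high at only 1 site, so the filter shaped the lowest group. What part this had in the trend was not tested. Precision followed signal, with a median standard error of 0.449 in the lowest group and 0.0934 in the highest. At least 4-fold were 378 rises and 190 falls, at least 8-fold 115 and 92, at least 16-fold 33 and 32, and at least 32-fold 11 and 5. Probe sets called higher held 9.08% and 9.17% of all signal on the calvaria arrays and 2.28% and 2.29% on the ulna arrays. Those called lower held 2.25% and 2.2% in calvaria and 7.34% and 7.35% in ulna. Since both sets were chosen on these same arrays, the direction of the shares was fixed in advance and only their size is described.

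**Figure D2:**
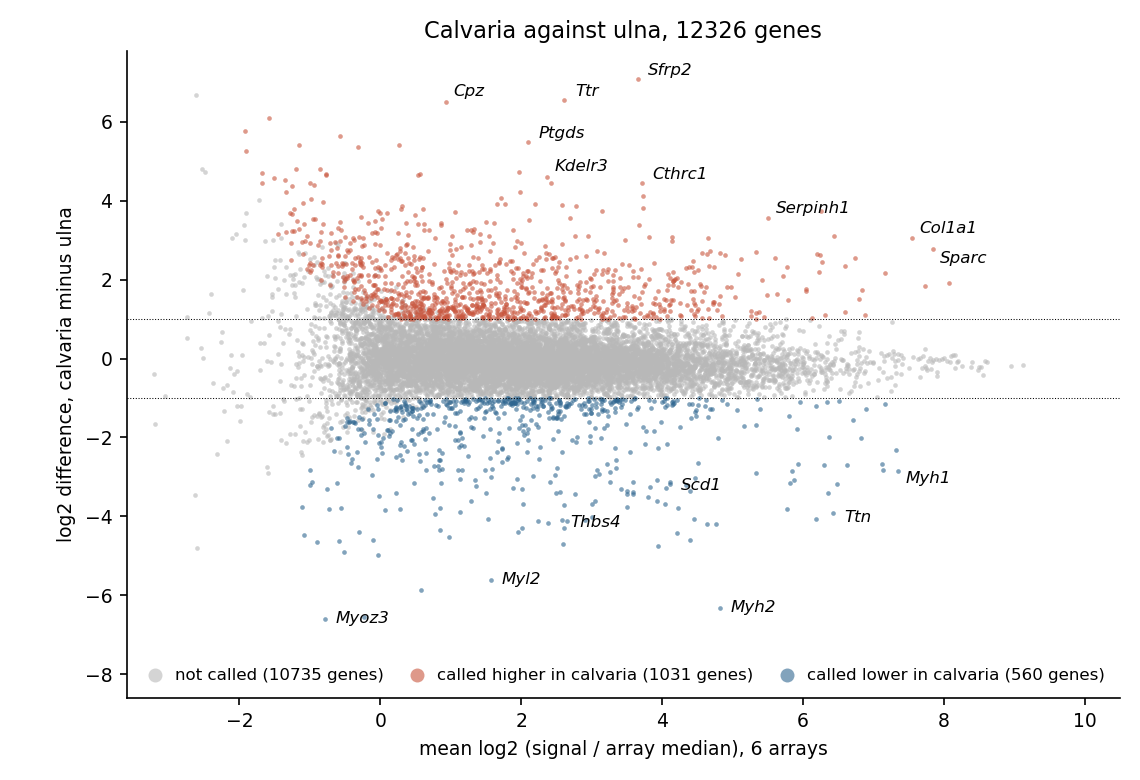
Log2 difference between calvaria and ulna (vertical axis) against mean log2 signal relative to the array median over 6 arrays (horizontal axis) for 12326 genes, with the 1031 called higher in red, the 560 called lower in blue, and dotted lines at 2-fold. Large rises extend into the lowest signals, and the falls of muscle genes such as Myh2 and Ttn stand at high signal.

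The largest rise was that of Sfrp2, a secreted protein that binds Wnt ligands. Its signal was 2645 and 2945 in calvaria and 22.3 and 17.2 in ulna (log2 difference 7.08, SE 0.13, limma adjusted p = 9.39e-11), with both ulna arrays below the array median. Ttr, the thyroid hormone carrier transthyretin, which the choroid plexus of the brain makes, read 8087 and 8619 in calvaria and 92.3 and 77.7 in ulna (6.55, SE 0.20, limma adjusted p = 1.56e-09). It was high on both calvaria arrays and still above the array median in ulna. Cpz, a carboxypeptidase of the matrix that binds Wnt proteins, read 312 and 326 in calvaria and 2.17 and 5.08 in ulna, a log2 difference of 6.51. Mfap4, a protein of elastic microfibrils, read 213 and 192 against 2.48 and 6.09 (5.63). For Matn4, an adaptor protein of cartilage matrix, the signals were 540 and 497 against 23.3 and 14.8 (4.72). Kdelr3, a receptor that returns chaperones to the endoplasmic reticulum, read 487 and 512 against 27.7 and 13.7 (4.60, SE 0.25, limma adjusted p = 2.24e-07). Arrays of the sites did not overlap for any of them, which was a condition for the 20 largest rises and falls. Genes of neural tissue stood among the 20 largest rises as well. Bcan, the proteoglycan brevican of brain matrix, read 227 and 209 in calvaria and 4.58 and 5.11 in ulna (5.42, limma adjusted p = 6.34e-07). Mt3, the metallothionein of brain, read 74.2 and 106 against 1.63 and 6.56 (4.68). Ptgds, Foxd1 and Zic1, which mark the meninges or pattern the head, were among the 20 too. The other 9 were Rerg, a Ras-like growth inhibitor, Cdhr1, a cadherin of photoreceptors, Mdfi, an inhibitor of myogenic factors, and 6 genes whose calls rested on both calvaria arrays. Without calvaria replicate 1, limma's adjusted p was 0.0921 for Mpp4, 0.175 for Scg5, 0.073 for Slc4a10, 0.156 for Erc2, 0.0628 for Tph1 and 0.089 for Syt13. Without calvaria replicate 2 it was 0.0966, 0.0982, 0.0758, 0.147, 0.0826 and 0.154 in the same order. A single array left in a site was taken to vary like the arrays of the other sites.

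**Figure D3:**
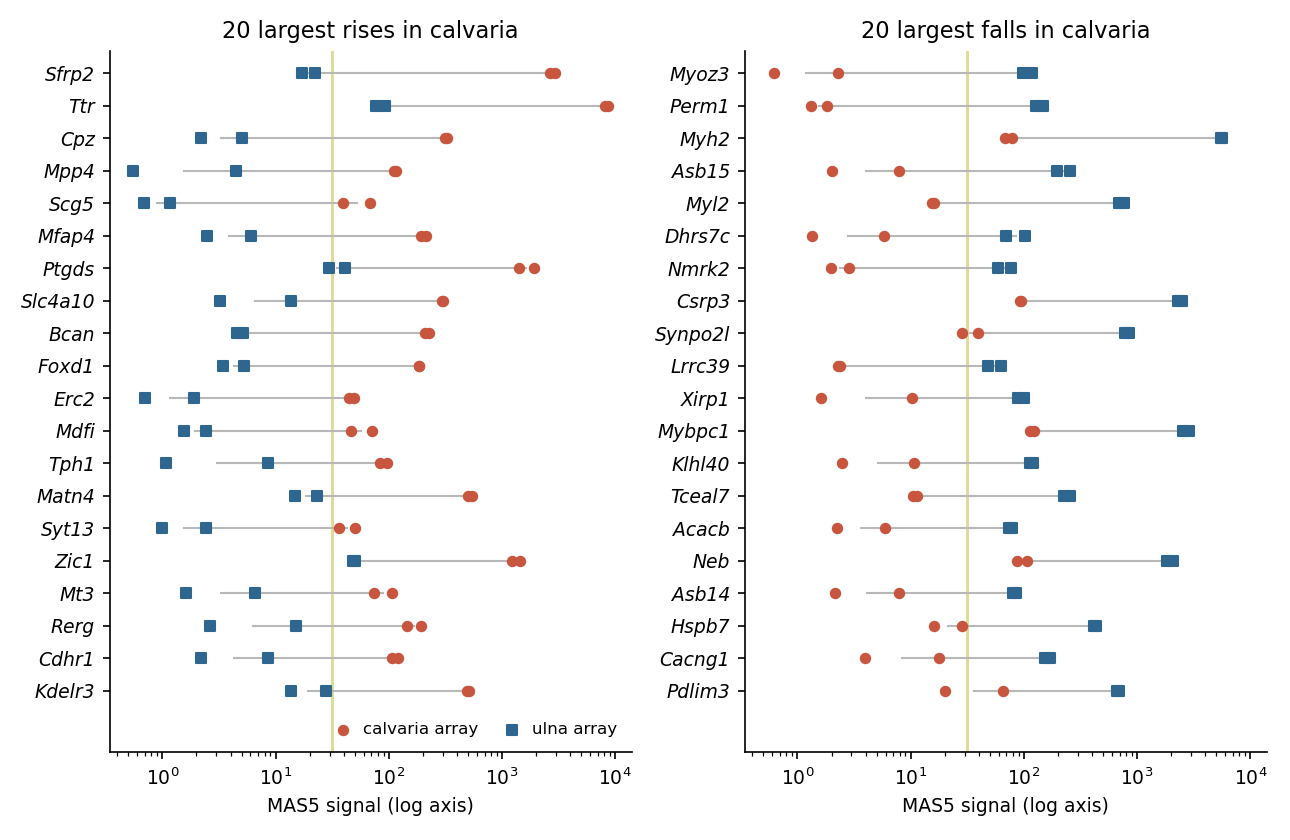
Signal (MAS5, logarithmic axis) of the 20 genes with the largest rise (left) and the 20 with the largest fall (right) in calvaria, with 1 point for each array and a vertical band over the range of the 4 array medians. For every gene the circles (calvaria) and squares (ulna) are apart, as the choice of genes required. The lower site often lies left of the band, where the fold is not exact.

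Genes of high signal that rose at least 4-fold included many of bone matrix and its turnover. Serpinf1, the secreted factor PEDF that bone mineralization requires, read 6464 and 7393 in calvaria and 491 and 490 in ulna (3.74, SE 0.07, limma adjusted p = 1.11e-10). Sparc, the matrix glycoprotein osteonectin, read 14310 and 15420 against 2118 and 1989 (2.78, SE 0.06). Gpx3, the glutathione peroxidase of plasma, read 6649 and 7018 against 1105 and 1098 (2.56). The groups were far apart for each of them. Mmp13, the collagenase of osteoblasts and hypertrophic chondrocytes, rose by 2.43 on the log2 scale, and Pcolce, which enhances the trimming of procollagen, by 2.63. Among markers of bone cells, the largest rise was that of Cgref1, a secreted growth regulator, from 35.7 and 41.0 in ulna to 573 and 617 in calvaria (3.88, limma adjusted p = 1.31e-08). Osteoblast markers were called higher in 14 of 15 cases, osteocyte markers in 6 of 11 and osteoclast markers in 5 of 16. None was called lower. At a limma adjusted p under 0.05 but under 2-fold, 1 osteocyte and 2 osteoclast markers were lower, and 2 and 3 were higher. The list medians were 1.92, 1.03 and 0.84.

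Collagen genes rose together. Among 31 collagen chains outside type I, calvaria was the higher site for 22 and the lower for none, with a median log2 difference of 1.83. Col5a2, which with type I collagen forms fibrils, read 5574 and 6054 in calvaria and 645 and 631 in ulna (3.11, SE 0.07, limma adjusted p = 1.57e-10). Col8a2, a short chain of basement membranes, read 377 and 393 against 31.1 and 36.7 (3.44). Col11a2, a fibril chain of cartilage, read 527 and 565 against 62.8 and 57.3 (3.11), and the membrane-bound chain Col13a1 295 and 305 against 53.2 and 37.9 (2.67). No array of one site overlapped with the other for these chains. Among the 9 chains not called were Col2a1 of cartilage, at 0.66 (limma adjusted p = 0.152), and Col10a1 of hypertrophic cartilage, at -1.27 and below the array median on all 4 arrays, whereas the cartilage chain Col11a1 rose by 2.14 like Col11a2.
Proteins that modify and assemble collagen were higher as well, in 18 of 24 genes tested (median 1.97), and none was lower. Serpinh1, the chaperone HSP47 that folds procollagen, read 3453 and 3293 in calvaria and 265 and 277 in ulna (3.56, SE 0.07, limma adjusted p = 1.11e-10). Lox, which crosslinks collagen and elastin, read 1204 and 1262 against 188 and 179 (2.67). Crtap, a partner of the prolyl 3-hydroxylase, read 910 and 961 against 154 and 176 (2.43). Not all genes of the list rose. The 6 not called included Mia3 (0.36), Plod3 (0.28), Colgalt1 (0.10) and Tmem38b (-0.23). On the log2 scale the prolyl 4-hydroxylase subunit P4ha2 rose by 2.31, the prolyl 3-hydroxylase P3h1 by 2.17, the coat protein Sec24d of export vesicles by 2.02 and the procollagen C-proteinase Bmp1 by 2.40. P4ha2, P3h1, Sec24d, Bmp1 and the 4 named as not called, like Col2a1, Col10a1 and Col11a1, were named after their values were seen.

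Of 12 small leucine-rich proteoglycans, which bind collagen fibrils and growth factors, 10 were higher in calvaria and 1 was lower (median 2.03). Omd, osteomodulin of mineralized matrix, read 1641 and 1735 in calvaria and 172 and 219 in ulna (3.04, SE 0.11, limma adjusted p = 7.33e-09). Ogn, osteoglycin, read 2146 and 2046 against 328 and 364 (2.53). Epyc, a proteoglycan of growth cartilage, rose by 3.19 from signals below the array median in ulna. Decorin (Dcn, 2.17), lumican (Lum, 2.35) and biglycan (Bgn, 2.20) belonged to the genes of high signal. The exception was Kera, keratocan of cornea and tendon, at 3.39 and 14.6 in calvaria and 38.4 and 31.9 in ulna (-2.39), which did not pass without ulna replicate 1 (limma adjusted p = 0.0625), leaving 0 genes lower.
Large proteoglycans and their link proteins rose in 10 of 20 genes and fell in 1 (median 1.25), with the brain proteoglycan Ncan, neurocan, at 4.41 and the cell surface glypican Gpc3 at 3.14. Prg4, lubricin of joint surfaces, was the gene that fell (-2.20). The enzymes that build and sulphate the sugar chains moved less, with 6 of 33 higher and none lower (median 0.52). Ext1, which polymerizes heparan sulphate, read 214 and 237 in calvaria and 78.4 and 77.8 in ulna (1.45), and Dsel, an epimerase of dermatan sulphate, rose by 1.31.

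Proteins of elastic fibres and microfibrils were higher in 8 of 16 genes and lower in none (median 0.99). Besides Mfap4, these included Fbn2, a fibrillin of development (2.19), Fbln1, fibulin 1 (1.81) and Efemp1, fibulin 3 (1.51). Matricellular proteins, which signal from the matrix, went both ways, with 12 of 22 higher and 2 lower (median 1.43). Cthrc1, a secreted protein of remodelling matrix, read 1512 and 1515 in calvaria and 58.6 and 73.4 in ulna (4.45, SE 0.12, limma adjusted p = 6.03e-10). Thbs2, thrombospondin 2, read 1702 and 1520 against 108 and 72.1 (4.11). In the same family Thbs4, the thrombospondin of tendon and muscle, ran the other way, at 17.9 and 30.0 in calvaria and 346 and 400 in ulna (-4.08, SE 0.21, limma adjusted p = 1.28e-07). Matrix proteases and their inhibitors were higher in 13 of 25 genes (median 1.06) and lower in 1, the inhibitor Timp4, and in 0 without calvaria replicate 2, ulna replicate 1 or ulna replicate 2. Mmp2, gelatinase A, read 1428 and 1550 against 201 and 253 (2.65), Mmp16, a membrane-bound protease, rose by 3.10 and the inhibitor Timp1 by 2.59.
Genes of mineral and phosphate handling were higher in 9 of 17 cases and lower in 1 (median 1.13). Tmem119, a membrane protein of differentiating osteoblasts, read 377 and 422 in calvaria and 71.1 and 57.6 in ulna (2.56). Vdr, the vitamin D receptor, read 375 and 348 against 73.4 and 79.9 (2.16, limma adjusted p = 6.55e-07), and Pth1r, the parathyroid hormone receptor, 602 and 650 against 132 and 143 (2.11, limma adjusted p = 2.50e-07). Both receptors were more than 4 times as high on every calvaria array as on any ulna array.

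**Figure D4:**
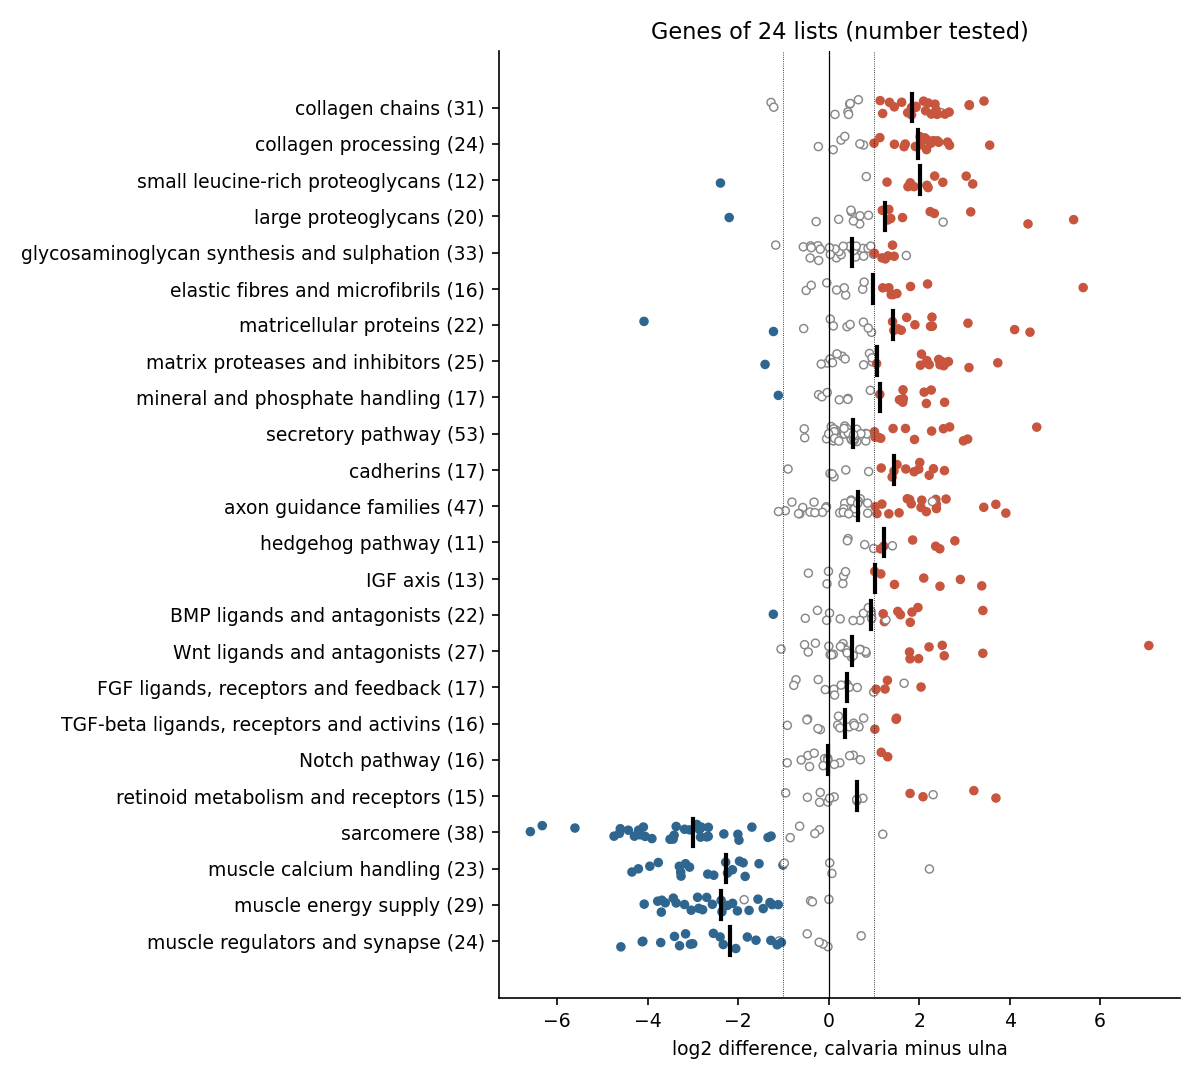
Log2 difference between calvaria and ulna for the tested genes of 24 lists. Filled points were called (red higher, blue lower), open points were not, and each black bar is a list's median. The collagen, collagen processing and proteoglycan medians lie between 1.25 and 2.03 except for sugar chain synthesis at 0.52, and those of the 4 muscle lists between -2.99 and -2.19.

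Secreted collagen passes through the endoplasmic reticulum and the Golgi, and genes of this route shifted as a body but mostly by little. Of 53 such genes, 13 rose in calvaria and none fell, while 22 more were higher at an adjusted p under 0.05 but under 2-fold (median 0.54). The largest rise was that of Kdelr3, given above, and folding factors followed. Rcn3, a calcium-binding protein of the reticulum, read 1120 and 1169 in calvaria and 121 and 137 in ulna (3.07, SE 0.10, limma adjusted p = 2.12e-09). The prolyl isomerases Fkbp7 (2.98) and Fkbp14 (2.68) rose likewise. Not all genes of this compartment moved. Hspa5, the chaperone BiP, read 2654 and 2758 against 2468 and 2463 (0.06, limma adjusted p = 0.542), and Xbp1, a transcription factor of the unfolded protein response, 1453 and 1349 against 1263 and 1203 (0.11, limma adjusted p = 0.293). Creb3l1, a membrane-bound factor that osteoblasts use for collagen secretion, read 295 and 336 against 41.9 and 62.6 (2.54, limma adjusted p = 2.45e-06). These last 3 genes were named after their values were seen.
Factors of the XBP1 and CREB3L families bind the core ACGTGG, which was searched on both strands of promoters from RefSeq (GRCm38.p6, 250 bases before to 50 after the start, 9946 of the 12326 tested genes with one). The core stood in 8.32% of all 27025 promoters and in 11.5% of those of tested genes. In the secretory list it stood in 19 of 43 promoters (44.2%), in 6 of the 11 of genes called higher (54.5%) and in 13 of the 32 of genes not called (40.6%). The match is a description and not a binding site. It can be part of the E-box form CACGTG and reads CCACGT on the opposite strand. Shown are the 200 bases before the start, 5′ to 3′ on the strand of the gene, for 4 called genes of secretion or collagen processing that hold it, with the core in capitals. Kdelr3 lies at chr15:79516208-79516407 (+), Serpinh1 at chr7:99353240-99353439 (-), Rcn3 at chr7:45092214-45092413 (-) and Sec24d at chr3:123267296-123267495 (+), all upstream of the first exon. They were chosen after their values were seen.
Kdelr3: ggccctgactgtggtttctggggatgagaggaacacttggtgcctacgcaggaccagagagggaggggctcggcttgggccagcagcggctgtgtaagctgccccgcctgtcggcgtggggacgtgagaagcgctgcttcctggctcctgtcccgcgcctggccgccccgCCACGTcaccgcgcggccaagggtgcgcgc
Serpinh1: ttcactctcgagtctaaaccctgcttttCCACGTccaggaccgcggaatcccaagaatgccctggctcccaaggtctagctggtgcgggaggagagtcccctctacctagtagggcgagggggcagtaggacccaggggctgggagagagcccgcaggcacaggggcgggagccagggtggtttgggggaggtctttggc
Rcn3: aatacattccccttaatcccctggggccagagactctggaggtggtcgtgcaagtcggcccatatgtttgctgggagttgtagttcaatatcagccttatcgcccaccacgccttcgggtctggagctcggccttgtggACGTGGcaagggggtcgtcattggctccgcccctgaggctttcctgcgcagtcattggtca
Sec24d: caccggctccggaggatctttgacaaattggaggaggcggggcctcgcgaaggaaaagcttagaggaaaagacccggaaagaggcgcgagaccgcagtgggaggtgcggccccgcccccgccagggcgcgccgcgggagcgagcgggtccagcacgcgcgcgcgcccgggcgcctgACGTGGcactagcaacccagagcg
The core lies 30 bases or fewer from the start in Kdelr3 and Sec24d, which rose by 4.60 and 2.02 on the log2 scale, and farther upstream in Rcn3 and Serpinh1, which rose by 3.07 and 3.56.

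Ligands, receptors and antagonists of developmental pathways were higher in part. In the insulin-like growth factor axis 7 of 13 genes were higher and none lower (median 1.02). The ligand Igf2 read 915 and 997 in calvaria and 93.3 and 80.5 in ulna (3.39, SE 0.11, limma adjusted p = 2.41e-09). The ligand Igf1 read 854 and 953 against 306 and 318 (1.46), and the binding protein Igfbp3 267 and 240 against 28.3 and 35.8 (2.91). The receptors Igf1r (-0.04) and Igf2r (0.32) were not called, and Igf1, Igf1r and Igf2r were named after their values were seen. In the hedgehog pathway 6 of 11 genes were higher and none lower (median 1.22). The co-receptors Cdon, at 293 and 300 against 41.1 and 63.7 (2.46, limma adjusted p = 1.41e-05), and Gas1, at 841 and 842 against 194 and 249 (1.86), were among them. Gli1, a target of the pathway, passed (2.79, limma adjusted p = 0.0393) but not without calvaria replicate 1 (0.162), calvaria replicate 2 (0.126) or ulna replicate 1 (0.0958).
Of the extracellular Wnt ligands and antagonists, 8 of 27 were higher and none lower (median 0.51), and without calvaria replicate 2 there was 1 lower. Besides Sfrp2 these included Rspo3, an R-spondin that potentiates Wnt signals, at 114 and 121 in calvaria and 21.1 and 18.0 in ulna (2.51, limma adjusted p = 0.000234). The Wnt receptors moved too, with 5 of 9 Frizzled genes higher, such as Fzd1 (1.64), and Fzd4 lower (-1.51), both named after their values were seen. Among BMP ligands and antagonists 8 of 22 were higher (median 0.94). Gdf10, a growth factor also known as BMP3B, read 454 and 487 against 126 and 102 (1.98), and Bambi, a decoy receptor, 439 and 462 against 136 and 105 (1.84). Grem1, a BMP antagonist, was the 1 lower (-1.22, limma adjusted p = 0.041), and was not called under other scalings or without calvaria replicate 2 (0.275), ulna replicate 1 (0.111) or ulna replicate 2 (0.160).
In the FGF list 4 of 17 genes were higher and none lower (median 0.41), among them the receptors Fgfr1, at 567 and 600 against 252 and 215 (1.25, limma adjusted p = 3.97e-06), and Fgfr2, at 526 and 581 against 201 and 225 (1.30). The TGF-beta list had 3 of 16 higher and none lower (median 0.35), with Pmepa1, a feedback inhibitor, at 369 and 397 against 131 and 126, and the ligand Tgfb3 at 326 and 253 against 113 and 82.7 (1.49). Retinoid genes were higher in 4 of 15 cases (median 0.62), led by Aldh1a3, which makes retinoic acid, at 42.4 and 43.4 against 2.92 and 3.37 (3.70). Of the 4, only Aldh1a3 kept its call in each leave-one-out fit, since Cyp26b1 did not pass without calvaria replicate 1 (0.0778), Crabp2 without calvaria replicate 2 (0.101) and Crabp1 without calvaria replicate 1 (0.0754), calvaria replicate 2 (0.113) or ulna replicate 2 (0.0747). The Notch list stood at the background, with 2 of 16 higher, 1 without calvaria replicate 1 or ulna replicate 2, and a median of -0.02 that became positive in some settings. Jag1, a Notch ligand, read 479 and 522 against 217 and 207 (1.16).

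Genes of axon guidance, which steer nerve and other migrating cells, were higher in 18 of 47 cases and lower in none (median 0.64). Epha3, an ephrin receptor, read 301 and 275 in calvaria and 14.9 and 21.9 in ulna (3.92, SE 0.22, limma adjusted p = 2.99e-07). Unc5c, a netrin receptor, read 75.8 and 81.5 against 5.85 and 5.64 (3.70). Slit2, a secreted repellent, read 810 and 574 against 180 and 137 (2.04), its receptor Robo1 112 and 107 against 23.7 and 17.0 (2.37), and the semaphorin receptor Nrp2 929 and 768 against 203 and 182 (2.06). These last 3 genes were named after their values were seen. Pairs of ligand and receptor were not examined over the list, of which 29 genes were not called. The count depended on single arrays, with 12 higher and 3 lower without calvaria replicate 1, 11 higher without calvaria replicate 2, and 1 lower without ulna replicate 1.
Cadherins, the adhesion proteins of cell contacts, were higher in 11 of 17 cases (median 1.44). Cdh2, N-cadherin, read 710 and 730 in calvaria and 131 and 163 in ulna (2.22, SE 0.12, limma adjusted p = 1.77e-07), and the large cadherin Fat3 369 and 378 against 75.5 and 66.8 (2.32). Cdh11, the cadherin of osteoblasts, named after its values were seen, read 2286 and 2109 against 533 and 514 (1.99). None was lower in the fit of all arrays, and 1 was without calvaria replicate 2 and without ulna replicate 2. Gap junction genes had 4 of 7 higher and 1 lower (median 1.35). Gja1, connexin 43 of osteoblasts and osteocytes, read 4809 and 4477 against 1518 and 1575 (1.51, SE 0.07, limma adjusted p = 6.89e-08), and Panx3, a pannexin of bone, 60.3 and 40.6 against 14.8 and 15.3 (1.65). Panx1, the gene that was lower (-1.39), did not pass without calvaria replicate 1 (0.0784) or ulna replicate 2 (0.0934).
Transcription factors that pattern the skull were higher in 12 of 28 cases and lower in none (median 1.45), and those of the limb were higher in 3 of 13 and lower in 5 (median -0.93). With 1 array left out, fewer or more skull factors were higher, depending on the array. The limb factors lower were 2 without ulna replicate 2 and 3 without ulna replicate 1. Prrx2, a homeobox gene of mesenchyme in both, read 110 and 113 in calvaria and 11.7 and 20.6 in ulna (2.77).

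Markers of the meninges were higher in 9 of 15 cases and lower in none (median 2.09). Ranbp3l, which fibroblasts of the meninges express, read 485 and 521 in calvaria and 24.3 and 33.0 in ulna (4.08, SE 0.19, limma adjusted p = 6.58e-08), and Slc47a1, a transporter named after its values were seen, 267 and 307 against 34.2 and 40.3 (2.87). Others of the list differed little between the sites, such as Aldh1a2, which makes retinoic acid in meninges (-0.02), and Slc6a13, a transporter of the pia (-0.21), neither of which was called. Of 14 markers of brain neurons and glia, 9 were higher and none lower (median 1.37). The synaptic gene Snap25 read 416 and 362 against 23.4 and 12.1 (4.45, limma adjusted p = 0.00123). Its adjusted p was 0.102 without calvaria replicate 1 and 0.0885 without calvaria replicate 2, and the count of markers higher fell to 5 and to 4 without these arrays. Markers of peripheral nerve were higher in 2 of 7 cases and lower in none (median 0.65), and in 1 without calvaria replicate 1.
Of 16 cartilage markers, 7 were higher and none lower (median 1.53), and 2 were lower without calvaria replicate 2. The largest rise was that of Matn4. Cnmd, chondromodulin, came next (4.44) but lay below the array median on all 4 arrays and was not called without calvaria replicate 1 (limma adjusted p = 0.0585) or calvaria replicate 2 (0.154). Col11a2 followed, and Acan, the main proteoglycan of cartilage, was among the genes higher (1.63). Tendon and enthesis genes divided, with 5 of 11 higher and 4 lower. Tnmd, tenomodulin of tendons and ligaments, read 992 and 995 in calvaria and 60.6 and 81.3 in ulna (3.75, SE 0.14, limma adjusted p = 1.18e-08), and Mkx, a tendon homeobox factor, 60.4 and 53.9 against 9.40 and 12.5 (2.32), while Thbs4, Prg4, Kera and Cilp fell. Acan, Cilp, Aldh1a2 and Slc6a13 were named after their values were seen.

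Genes of striated muscle led the falls. Of 38 sarcomere genes, 33 fell in calvaria and none rose (median -2.99), and Nebl alone was higher without ulna replicate 1. Muscle calcium handling had 19 of 23 lower (median -2.28), muscle energy supply 25 of 29 (median -2.38) and muscle regulators and synapse 18 of 24 (median -2.19), with none higher among them. The fold was not the same for all. Myh2, a fast myosin heavy chain of oxidative fibres, read 68.4 and 77.7 in calvaria and 5600 and 5539 in ulna (-6.33, SE 0.08, limma adjusted p = 1.81e-11). Myh1, a fast myosin of intermediate fibres, read 1493 and 1455 against 10140 and 10120 (-2.86, SE 0.06), and Myh4, the fastest, 714 and 679 against 2163 and 2116 (-1.70, SE 0.07). Read by 1 probe set each, these 3 fast myosins of chromosome 11 thus differed in their measured ratio of ulna to calvaria. Myl2, the regulatory light chain of slow fibres and heart, fell from 685 and 772 in ulna to 15.4 and 16.1 in calvaria (-5.61). The slow and heart myosin Myh7 (-0.64), the heart actin Actc1 (-0.85) and the perinatal myosin Myh8 (-0.20) were not called.
The structural genes Ttn, the giant protein titin, at 553 and 522 against 7486 and 7799 (-3.91), and Acta1, skeletal actin, at 1290 and 1218 against 8259 and 8478 (-2.81), belonged to the falls of high signal. Some muscle genes kept a high signal in calvaria. Tnnc2, fast troponin C, read 1833 and 1924 there and 8776 and 8961 in ulna (-2.32). In calcium handling, Trdn, triadin, read 158 and 129 against 2426 and 2562 (-4.21, SE 0.10), and Ryr1, the calcium release channel, 60.4 and 87.1 against 989 and 884 (-3.77). Atp2a2, the calcium pump that many tissues share, did not differ by much, at 816 and 914 against 791 and 766 (0.07, limma adjusted p = 0.548). In energy supply, the mitochondrial creatine kinase Ckmt2 fell by 3.78, while Aldoa, the aldolase of muscle and of other tissues, read 1590 and 1682 against 6198 and 6348 (-2.02). Regulators that fell included Klhl41, which stabilizes the sarcomere, at 57.0 and 47.8 against 640 and 658 (-3.71), and the thin filament protein Nrap, at 55.7 and 35.6 against 696 and 759 (-4.11). The general factors Mef2a (-0.01), Mef2c (-0.47) and Mef2d (-0.12) were not called. Myh7, Myh8, Actc1, Atp2a2 and the Mef2 genes were named after their values were seen.
Among the 20 largest falls, Myoz3, an anchor of the Z disc, read 0.618 and 2.26 in calvaria and 119 and 98.4 in ulna (-6.59), and Perm1, a muscle regulator of mitochondria, 1.82 and 1.31 against 127 and 148 (-6.55). Asb15 and Asb14 of the ankyrin and SOCS box family were there too, and over the family 7 of 13 genes were lower and none higher (median -1.80). Of the 20, only Acacb, the acetyl-CoA carboxylase of muscle, lost its call when 1 array was left out (limma adjusted p = 0.0563 without ulna replicate 2).

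Some promoters of muscle genes carry motifs for the myogenic factors or for serum response factor. The E-box form CAGCTG, which reads the same on both strands, stood in 16.1% of all promoters. In the sarcomere list it stood in 11 of 27 promoters (40.7%), and in 32 of 69 (46.4%) of all muscle-list genes called lower. The CArG box, to which serum response factor binds, stood in 1.57% of all promoters, 1.36% of those of tested genes and 5 of 27 of the sarcomere list (18.5%). Of all muscle-list genes called lower it stood in 4 of 69 promoters (5.8%). In muscle calcium handling it stood in 0 of 13 and in muscle energy supply in 0 of 25. These are descriptions of letters and not of binding. The CArG box and the E-box do not overlap in Myh4. Of 4 sarcomere genes with a CArG box the 200 bases before the start are given 5′ to 3′ on the strand of the gene, with the CArG box in capitals and, in Myh4, the E-box as well. Acta1 lies at chr8:123894776-123894975 (-), Ldb3 at chr14:34588682-34588881 (-), Myom1 at chr17:71019357-71019556 (+) and Myh4 at chr11:67237612-67237811 (+), in GRCm38.p6 and upstream of the first exon.
Acta1: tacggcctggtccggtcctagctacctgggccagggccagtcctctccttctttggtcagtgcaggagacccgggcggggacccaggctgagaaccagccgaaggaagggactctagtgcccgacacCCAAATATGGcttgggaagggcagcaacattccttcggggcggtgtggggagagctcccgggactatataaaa
Ldb3: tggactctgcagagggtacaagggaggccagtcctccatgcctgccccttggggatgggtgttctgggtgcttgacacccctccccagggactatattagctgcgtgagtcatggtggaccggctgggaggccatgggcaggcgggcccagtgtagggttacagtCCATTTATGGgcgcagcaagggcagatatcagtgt
Myom1: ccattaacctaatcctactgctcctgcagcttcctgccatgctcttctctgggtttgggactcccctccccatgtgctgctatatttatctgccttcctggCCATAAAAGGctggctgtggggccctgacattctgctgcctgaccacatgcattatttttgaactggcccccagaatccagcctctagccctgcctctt
Myh4: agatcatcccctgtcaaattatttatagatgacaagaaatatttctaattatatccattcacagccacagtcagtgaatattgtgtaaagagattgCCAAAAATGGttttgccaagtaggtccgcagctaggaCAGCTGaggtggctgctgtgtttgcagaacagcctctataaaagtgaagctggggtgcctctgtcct
These genes fell by different amounts, with Ldb3, a protein of the Z disc, at 96.3 and 78.5 in calvaria and 878 and 828 in ulna (-3.37), Myom1, of the M band, at 73.0 and 120 against 613 and 652 (-2.83), and Acta1 and Myh4 as given above. Ldb3 and Myom1 were named after their values were seen.

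Several groups shifted by less than 2-fold but together. Of 71 genes of oxidative phosphorylation, the respiratory chain of mitochondria, none was called in the fit of all arrays, while 57 were lower and 2 higher at a limma adjusted p under 0.05 but under 2-fold (median -0.53). The list did not hold Cox6a2, Cox7a1 and Cox8b of the same chain, which were called lower. Cox8b stood in the muscle energy supply list (-3.70). Uqcrb, a subunit of complex III, read 6130 and 6722 in calvaria and 8285 and 8358 in ulna (-0.45, SE 0.06, limma adjusted p = 0.000209). Ndufa5, of complex I, had the lowest difference of the list, at 810 and 729 against 1439 and 1412 (-0.97). Cell cycle genes had 2 of 33 higher and 2 lower, with 25 more that were lower at that adjusted p but under 2-fold (median -0.66). Mki67, a marker of dividing cells, read 1974 and 1936 against 4060 and 3872 (-1.10, SE 0.07, limma adjusted p = 7.54e-07), and its arrays did not overlap, although it lay under 2-fold after quantile normalization. The higher ones were Cdkn1c, an inhibitor of the cycle (1.53), and Ccnd1, cyclin D1 (1.09). The other lower one, Ccne2, lay at the 2-fold limit (-1.02) and lay under it with other scalings and without calvaria replicate 2 (-0.88) or ulna replicate 1 (-0.98). Genes of hypoxia and glycolysis were lower in 4 of 19 cases and higher in none (median -0.57), and in 2 after quantile normalization, where Pgk1 (-0.97) and Bnip3 (-0.99) lay under 2-fold. Hk2, a hexokinase of muscle, read 236 and 217 against 740 and 803 (-1.85). As a reference, the 32 ribosomal protein genes had a median of -0.01, with none called in either direction by limma and with 1 higher and 4 lower at an adjusted p under 0.05. Rps29 read 12990 and 12350 against 12880 and 12580. Ndufa5, Cox6a2 and Cox7a1 were named after their values were seen.

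**Figure D5:**
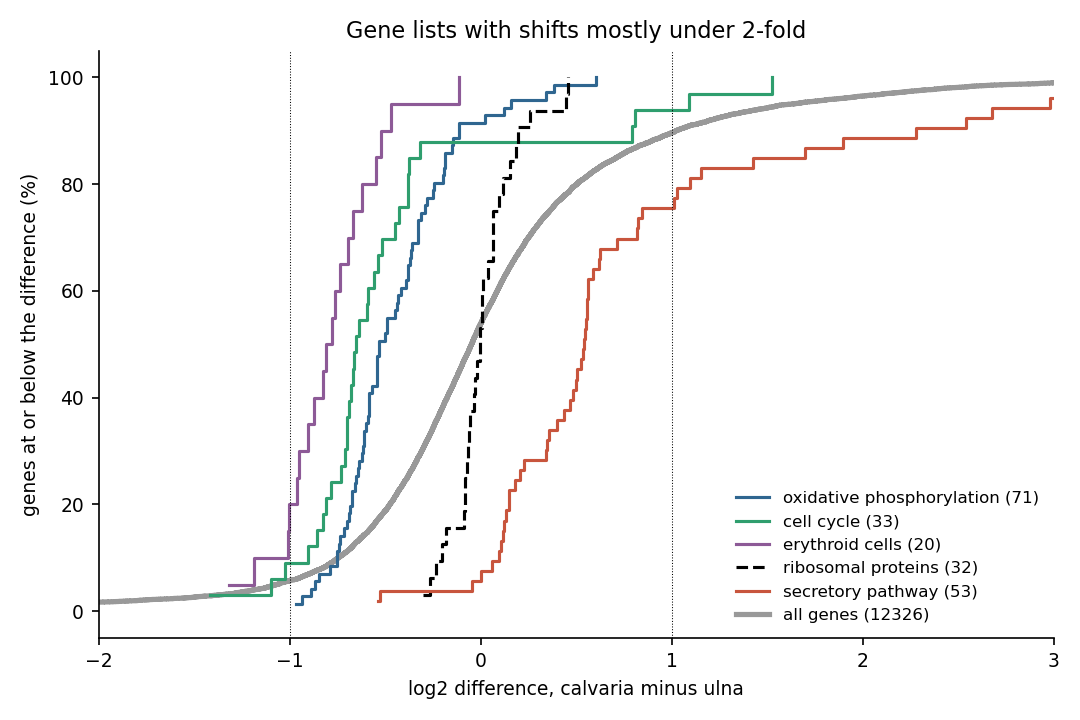
Share of genes (vertical axis, in percent) at or below each log2 difference between calvaria and ulna (horizontal axis) for 5 lists and for all 12326 genes, with dotted lines at 2-fold. The ribosomal curve rises steeply at 0, those of erythroid cells, cell cycle and oxidative phosphorylation lie to the left of the curve of all genes over most of their range, and that of the secretory pathway to the right.

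Blood lineages of the marrow did not move alike. Markers of megakaryocytes and platelets were lower in calvaria in 10 of 15 cases and higher in none (median -1.28). Tubb1, the tubulin of platelets, read 501 and 435 in calvaria and 1502 and 1449 in ulna (-1.74, SE 0.09, limma adjusted p = 2.18e-07), and Itga2b, a chain of the fibrinogen receptor, 220 and 261 against 726 and 724 (-1.67). Clec1b (-1.49) and Gp1bb (-1.42), both receptors of platelets, fell as well. Of 20 erythroid genes 4 were lower and 15 more were lower by less than 2-fold (median -0.79). The count was 2 with the values as deposited, quantile normalization, 75th percentile scaling or an offset, since Gfi1b and Rhag lay at the 2-fold limit. Clear of it was Kel, a blood group protein, at 240 and 237 against 528 and 502 (-1.19). The 18 neutrophil markers had a median of -0.37 and 1 called lower, Cxcr2 (-1.01), which was not called under other scalings, without calvaria replicate 1 (-0.95) or ulna replicate 2 (-0.80). Lymphocyte lists stood close to the background. Of 16 B cell genes none was called (median -0.04), and Ighm, the mu heavy chain, read 3163 and 3181 against 3430 and 3271. In the lists for antigen presentation by MHC class II (11 genes) and for the interferon response (23 genes) none was called by limma, while 3 and 2 genes were lower at an adjusted p under 0.05 but under 2-fold. Of the interferon genes 2 were higher in the same way. Mast cell and eosinophil genes (10) had none called by limma in the fit of all arrays, with 2 higher and 3 lower under 2-fold. The macrophage list had 1 of 16 called, the folate receptor Folr2, which was higher (2.68, limma adjusted p = 0.00493), 2 called without ulna replicate 1, and a median of 0.05. T and NK cell genes (11) had Thy1, which many mesenchymal cells share, higher (1.40) and Cd8a lower (-1.82, and limma adjusted p = 0.0997 without calvaria replicate 2 and 0.137 without ulna replicate 1). Complement genes were higher in 3 of 13 cases and lower in none (median 0.56), and higher in 5 with the values as deposited.
Niche factors, with which stromal cells hold blood stem cells, divided. Ptn, the growth factor pleiotrophin, read 859 and 724 in calvaria and 72.5 and 39.2 in ulna (3.81, SE 0.22, limma adjusted p = 3.30e-07), and Tnfsf11, the osteoclast factor RANKL, rose by 1.62 (limma adjusted p = 0.0122, and 0.0921 without calvaria replicate 1). Angpt1 was lower in the fit of all arrays (-1.06) but under 2-fold with the values as deposited and without calvaria replicate 1 (-0.93) or ulna replicate 1 (-0.94). Adipocyte markers were lower in 6 of 14 cases and higher in none (median -0.88). Scd1, a desaturase of fat synthesis, read 245 and 302 against 2260 and 2229 (-3.12, SE 0.11, limma adjusted p = 4.94e-09), and the lipid droplet gene Plin4 17.8 and 10.9 against 147 and 159 (-3.53). Endothelial genes had 1 of 22 higher and 1 lower (median -0.04, of either sign over the settings), and 3 lower without calvaria replicate 2. Smooth muscle and pericyte genes had 1 of 13 higher, Pdgfrb, at 815 and 795 against 326 and 341 (1.20), and a median of 0.19. Genes of skin and oral epithelium were lower in 3 of 13 cases, among them the keratin Krt14, which lay below the array median on all 4 arrays (-3.15), and the desmosome gene Dsp, at 18.5 and 16.5 against 71.4 and 68.5 (-2.08). Immediate early genes had 1 of 21 called, Atf3, which was lower (-1.26) but not without calvaria replicate 2 (0.131) or ulna replicate 2 (0.155). Clock genes had 2 of 16 higher, led by Npas2 (3.21), and 1 without calvaria replicate 2 or without ulna replicate 2. Cholesterol synthesis had 2 of 18 higher and 1 lower, and without calvaria replicate 2 there were 1 and 0. Receptors of steroids and hormones had 3 of 14 higher and 1 lower, Ptger3 (-1.19), which did not pass without ulna replicate 1 (0.0534).

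Some of the genes called were neighbours on their chromosome. Among tested genes in chromosome order there were 10 runs of at least 3 neighbours called one way, 9 higher and 1 lower, with 34 genes in all. Of all genes, 8.36% were higher and 4.54% lower, and the count of runs was not tested against these shares. Of the 10 runs, 6 remained without calvaria replicate 1, 9 without calvaria replicate 2, 7 without ulna replicate 1 and 8 without ulna replicate 2, while the total ranged from 8 to 16. A run on chromosome 13 held the proteoglycan genes Ecm2, Aspn, Omd and Ogn. Aspn, asporin, read 1287 and 1074 in calvaria and 328 and 278 in ulna (1.89, SE 0.11, limma adjusted p = 2.61e-07), and Ecm2 was not called without calvaria replicate 1 (0.0598) or calvaria replicate 2 (0.0708). Another joined Gulp1 (2.09), an adaptor of phagocytosis, to the collagen genes Col3a1 and Col5a2, of which Col3a1 read 9462 and 10250 against 2545 and 2700 (1.83, SE 0.06). Likewise one run held the metallothionein genes, with Mt1 at 806 and 944 against 339 and 308 (1.36) and Mt2 at 632 and 586 against 256 and 254 (1.18) beside the brain form Mt3. Edil3, Hapln1 and Vcan, genes of matrix adhesion and hyaluronan binding, made up a further one, as did Nhsl1, Hebp2 and Arfgef3. Hapln1 lay below the array median on every calvaria and ulna array. It was not called when the mandible arrays were left out (limma adjusted p = 0.0828). Tnmd lay on the X chromosome in a run with Pcdh19, Tspan6 and Srpx2. Pcdh19 was near the threshold (limma adjusted p = 0.0399) and was not called with no filter (0.0712). The only run of lower genes was that of the fast myosins on chromosome 11, which held 2310065F04Rik, Myh2, Myh1, the antisense transcript Myhas and Myh4. Myhas read 305 and 342 against 4330 and 4224 (-3.80). Runs with Grb10, with Jam3 and Ntm, and with Pcdhb21 completed the 10, and each held a gene that was not called in some alternatives. Among the chromosomes, the share of genes higher ranged from 4.13% on chromosome 17 to 12.7% on X, where 48 of 379 were higher.

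Probe sets of 1 gene can read different transcripts. Of 5369 genes with several tested probe sets, 398 had at least 2 called and 633 had 1 called. For 5 genes, Col4a5, Mbp, Pde4dip, Synpo and Tpm1, probe sets were called in both directions. Tpm1, the alpha tropomyosin whose exons are spliced differently in muscle and in other cells, was lower at the probe set that stands for it here, from 4102 and 4294 in ulna to 1077 and 1164 in calvaria (-1.98, SE 0.07, limma adjusted p = 8.81e-09). At another probe set it was higher, at 1100 and 1183 in calvaria and 518 and 559 in ulna (1.01, SE 0.08, limma adjusted p = 4.39e-06). Pde4dip, the scaffold protein myomegalin, read 102 and 103 in calvaria and 1000 and 1005 in ulna at one probe set (-3.37), and 178 and 138 against 94.3 and 56.6 at another (1.03, limma adjusted p = 0.00695). Mbp, myelin basic protein, whose locus also makes transcripts outside myelin, read 677 and 712 against 233 and 237 at one probe set (1.49) and 39.1 and 43.7 against 114 and 127 at another (-1.61). For each of these pairs the arrays of the sites did not overlap at either probe set. Which exons the probe sets lie in was not analysed here.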

How the data were processed

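Calvaria, ulna and mandible of adult male mice were hybridised to 6 Affymetrix mouse GeneChip arrays, 2 for each site. The authors deposited a linear signal intensity per probe set (45101 of them), computed with MAS5 so that the 2% trimmed mean of every array is 100. The 64 control probe sets were left out. The annotation of the array gave 1 symbol to 34958 probe sets, several to 932 and none to 9211, and no gene was read from the last 2 kinds. Symbols were compared with RefSeq names on GRCm38.p6.

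Values were divided by the median of their array, the form of per chip normalization taken here from the methods, before log2 was taken. Tested were the 25233 probe sets (56.0%) above the array median on at least 2 arrays. A model of site means over all 6 arrays was fitted in R 4.3.3 with limma 3.58.1, whose moderated variances followed an intensity trend, and p-values were adjusted by Benjamini and Hochberg over all tested probe sets. Values in brackets after signals are log2 differences, calvaria minus ulna, of these values. The script had been tested on simulated data. Precision is limited by the number of arrays.

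The comparison and the 58 gene lists were chosen with earlier results of these data known. Lists are described by counts and medians, with no test. Named by rule were the 20 largest rises and falls among called genes whose arrays did not overlap between the sites. So were the 10 genes of highest signal in each direction that changed at least 4-fold. Up to 4 called members of each list (or the 2 of highest mean) were added. Genes called in both directions and runs of neighbours followed, with at most 4 patterning genes. Replicate numbers were not used to pair the samples, since the sources do not say whether same-numbered arrays share mice. Alternatives were other scalings and filters, an offset, other variance models, a replicate block and each array left out. Promoters came from RefSeq, and figures were drawn with matplotlib 3.10.9.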

Additional observations from a re-analysis of the deposited data

How the results depend on the processing

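Of the calls made with all arrays, none changed direction under any alternative that was run. With the values as deposited, with quantile normalization, with 75th percentile scaling, with no filter, with an offset of 0.25, without the intensity trend and with only calvaria and ulna arrays, 1587 to 1929 probe sets were higher and 1026 to 1318 lower. Restricting the test to probe sets above the 75th percentile left 1019 higher and 764 lower, since fewer were tested. Without moderated variances 940 were higher and 626 lower. That fit repeated 53.0% of the main calls higher and 49.1% of those lower. Of the genes chosen for naming, 82 lost their call in it, among them Mfap4, Mt3, Rerg and Cdhr1 of the largest rises. With the adjusted p alone 3274 were higher and 4201 lower. Leaving out 1 array gave 1337 to 1834 higher and 979 to 1287 lower. These totals do not show which calls recurred, and in each direction part of the calls with all arrays was lost. Deviations of same-numbered arrays were hardly correlated between sites (-0.00481, 0.00585 and -0.0123), which cannot show whether these arrays shared mice. With a replicate block 1716 were higher and 1213 lower. The median of all probe sets moved from -0.08 to 0.00 with the values as deposited. The medians of the Notch, tendon, B cell, mast cell, interferon, endothelial, immediate early, clock, hormone receptor and ribosomal lists changed sign in at least 1 alternative, the others in none. Signals below the array median limit the folds of genes low at one site.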

Other observations

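Several groups outside the lists were looked at after their values had been seen, and they are given as values with no test of the group. Imprinted genes, which are expressed from the copy of one parent and many of which control growth, were looked up for 39 symbols, of which 25 were tested. Of these, 12 were higher in calvaria and 0 lower by limma, with a median log2 difference of 0.97. Over all genes tested, 8.36% were higher and 4.54% lower, with a median of -0.05. Besides Igf2 and Grb10, the zinc finger gene Peg3 read 501 and 534 in calvaria and 104 and 112 in ulna (2.18, limma adjusted p = 2.13e-07). The long noncoding RNA Meg3 read 944 and 932 against 230 and 257 (1.87), and the zinc finger gene Plagl1 737 and 786 against 207 and 223 (1.75). For each of them the arrays of the sites did not overlap, as held for every gene called and for 27.5% of all probe sets in this direction.

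Single genes outside the lists stood apart in both directions. Cpe, the carboxypeptidase that trims peptide hormones, read 3436 and 3220 against 788 and 701 (2.09), and the granin Chgb had a log2 difference of 3.78. The glutathione peroxidases of the endoplasmic reticulum Gpx7 (3.91) and Gpx8, at 1389 and 1431 against 291 and 251 (2.31), were higher too, whereas Gclc, a subunit of the enzyme that starts glutathione synthesis, was lower (-1.16). The other subunit Gclm (-1.06) and the glutathione reductase Gsr (-1.01) were called lower with all arrays but lay under 2-fold with the values as deposited (-0.98 and -0.93).

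Of the small heat shock proteins, Cryab, alpha B crystallin, read 618 and 591 in calvaria and 5189 and 4555 in ulna (-3.09, limma adjusted p = 3.84e-10), and Hspb6 143 and 179 against 1376 and 1410 (-3.20). Hspb1 (-2.17), Hspb3 (-2.83), Hspb7 (-4.39) and Hspb8 (-2.06) were lower as well. Of antibody genes, the IgA heavy chain Igha read 1445 and 1684 against 5013 and 5248 (-1.79), and the joining chain Jchain 847 and 976 against 2531 and 3091 (-1.70), both lower by limma, whereas the 16 genes of the B cell list had none called.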
